A study of Mus musculus with 12 samples.

Results

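Tceal8, Inka1, Slc14a1, Gstm5, Muc13 and Pecr are 6 of the 55536 genes counted in megakaryocytes (MKs) sorted from the bone marrow (BM) and spleen. They were picked from this same count table, for a large excess in BM over splenic MKs or for a rise in splenic MKs after sepsis. Their differences between tissues, and between treatments in spleen, are therefore descriptions of why they were picked and carry no test. The comparison of septic with saline BM MKs was not used in picking them, although the same BM libraries entered the tissue difference. All 6 symbols matched 1 Ensembl identifier each, and all 6 passed the filter on low counts that left 20263 genes to test.

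The cells came from Pf4-TdTomato mice on the C57BL/6 strain, in which a Cre recombinase driven by the Pf4 promoter switches on a red fluorescent protein. All 4 groups carried these alleles. They were BM MKs and splenic MKs taken 5 days after saline, and BM MKs and splenic MKs taken 5 days after sepsis induced with cecal slurry, a suspension of gut contents given into the abdomen. Each group had 3 replicates, and each of the 12 libraries was made from 300 cells sorted as CD45+ Lineage- Pf4-tomato+ CD41+ CD42b+. The mice were young adults of both sexes. The lineage gate left out cells with B220, CD3, NK1.1, CD11b or F4/80. The reporter marks every cell in which the Pf4 promoter has been active, and the labels do not tie a library to a single mouse, so p-values measure only the spread between these libraries.

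The 6 genes have unrelated known roles. Tceal8 belongs to a family of small X-linked proteins that resemble a transcription elongation factor. Inka1 encodes an inhibitor of the kinase PAK4, which acts on the actin cytoskeleton. Slc14a1 encodes the urea channel UT-B, which carries the Kidd blood group antigen on red cells. Gstm5 encodes a mu-class glutathione transferase, an enzyme that couples glutathione to reactive compounds. Muc13 encodes a membrane mucin best known from the gut epithelium. Pecr encodes a peroxisomal enoyl-CoA reductase that takes part in the elongation of fatty acids. MKs are large polyploid cells that shed platelets, mostly in BM, while the mouse spleen also makes some.

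The promoter windows of 4 of the genes are shown because their levels in splenic MKs went different ways. Inka1 and Pecr are the members that were higher in all splenic libraries after sepsis than after saline, and Tceal8 and Muc13 are members without such a rise. Each window runs from 250 bases before to 50 bases after the start of transcription in RefSeq on GRCm38.p6, read 5′ to 3′ on the strand of the gene. They lie at chr9:107985867-107986166 on the minus strand for Inka1, chr1:72284272-72284571 on the minus strand for Pecr, chrX:136172202-136172501 on the minus strand for Tceal8 and chr16:33793787-33794086 on the plus strand for Muc13. Capitals mark the letters GGGCGG, the core of a GC box, or TTCNNNGAA, the pattern bound by STAT factors.
Inka1: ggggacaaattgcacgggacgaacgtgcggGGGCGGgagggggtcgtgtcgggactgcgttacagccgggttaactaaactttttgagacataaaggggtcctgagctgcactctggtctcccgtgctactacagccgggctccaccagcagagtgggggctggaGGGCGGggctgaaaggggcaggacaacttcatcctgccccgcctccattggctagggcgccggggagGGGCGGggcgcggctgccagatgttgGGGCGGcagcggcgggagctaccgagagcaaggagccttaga
Pecr: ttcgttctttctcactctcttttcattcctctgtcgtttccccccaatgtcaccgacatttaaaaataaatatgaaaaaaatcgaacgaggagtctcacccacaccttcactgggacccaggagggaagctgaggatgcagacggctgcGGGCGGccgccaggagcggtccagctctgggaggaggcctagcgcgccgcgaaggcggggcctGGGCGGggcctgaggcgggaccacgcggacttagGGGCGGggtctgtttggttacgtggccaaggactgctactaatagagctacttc
Tceal8: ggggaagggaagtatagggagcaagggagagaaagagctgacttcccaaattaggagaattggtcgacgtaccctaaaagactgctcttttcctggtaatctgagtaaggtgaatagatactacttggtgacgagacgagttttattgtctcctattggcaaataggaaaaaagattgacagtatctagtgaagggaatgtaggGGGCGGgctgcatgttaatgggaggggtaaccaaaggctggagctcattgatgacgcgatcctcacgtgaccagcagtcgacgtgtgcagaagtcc
Muc13: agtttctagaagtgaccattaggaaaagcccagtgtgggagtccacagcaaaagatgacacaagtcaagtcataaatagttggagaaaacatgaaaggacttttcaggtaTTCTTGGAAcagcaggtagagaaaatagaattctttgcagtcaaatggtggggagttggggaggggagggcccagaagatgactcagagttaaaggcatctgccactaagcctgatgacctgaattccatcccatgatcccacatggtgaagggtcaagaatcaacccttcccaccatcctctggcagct

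The Inka1 window held GGGCGG at 4 places, beginning 220, 85 and 18 bases before the start and 8 bases after it. The Pecr window held it at 3 places, 101, 38 and 4 bases before the start. The Tceal8 window held it once, 46 bases before the start, and the Muc13 window did not hold it. The window of Gstm5, a member without a rise in spleen, held it at 2 places, 50 and 30 bases before the start. Among 32851 promoter windows of the same length, 35.7% held GGGCGG on either strand. TTCNNNGAA stood once in the Muc13 window, 140 bases before the start, and in 8.3% of all windows. GATAA (25.4% of all windows), TGTGGT (16.8%) and CCGGAAG (8.86%), the core patterns of the GATA, RUNX and ETS families, were in none of the 5 member windows searched. GGGCGG was added to the search after the sequences were seen. Both strands were searched, the motifs were counted apart from one another, and a match is a run of letters, not a known site. The windows of Inka1 and Pecr were rich in G and C (65.7% and 58.3%, with 22 and 21 CpG steps), against medians of 52.7% and 7 over all windows. The Tceal8 window had 47.7% and 10 CpG steps. The Muc13 window had 46.3% and no CpG step. Gstm5, whose window is not printed, had 57.0% and 18.

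The libraries held between 7756762 and 27386184 counts. Genes of the MK and platelet list (18 genes) were detected in all groups, but their summed level was 24176 to 26938 CPM (counts scaled to a common library size with TMM factors) in BM MKs after saline and 12113 to 49365 after sepsis, against 1595 to 3665 and 1307 to 2539 in splenic MKs. After saline, Pf4 itself exceeded its splenic level in BM by 3.99 on the log2 scale (edgeR quasi-likelihood adjusted p = 0.00197). After sepsis the excess of Pf4 was 4.81 (edgeR adjusted p = 0.000336). Itga2b and Gp1ba, also genes of the sort, were not called after saline (edgeR adjusted p = 0.252 and 0.266). They were not called after sepsis either (edgeR adjusted p = 0.457 and 0.394). Of the 18 MK and platelet genes, 4 were called higher in BM after saline and 3 after sepsis. The summed level of 10 B cell markers was 177 to 293 and 72.4 to 98.9 CPM in BM, against 3217 to 7543 and 3302 to 10512 CPM in spleen. The 8 plasma cell markers summed to 1485 to 4697 CPM over the 6 BM libraries and 7761 to 80835 CPM over the 6 splenic ones. In the test across all genes, 9 of 10 B cell and 5 of 8 plasma cell markers were called lower in BM after saline, and 10 of 10 and 4 of 8 after sepsis. The 8 basophil and mast cell markers summed to 5154 to 29415 CPM in BM after saline and 2799 to 6745 CPM after sepsis. In spleen they summed to 3231 to 5164 and 49.9 to 745 CPM. They were called higher in BM in 0 of 8 cases after saline and 4 of 8 after sepsis. Among 9 progenitor markers, 0 were called higher in BM after saline and 2 after sepsis. In such bulk libraries, fewer cells of a type and less RNA per cell cannot be told apart. The part of these other transcripts in the tissue differences below was not tested. Replicate 3 of spleen sepsis stood apart from the other 2 libraries of its group. Its Itga2b level, the gene of CD41, was 320 CPM against 6.43 and 19.2 CPM, and its counts differed from those of replicate 1 by a chi-square of 731 per degree of freedom, the highest of all replicate pairs (lowest 74.4).

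BM MKs held more Tceal8, Slc14a1, Gstm5 and Muc13 RNA than splenic MKs, by 33.3-fold to 178-fold in mean CPM over both treatments, while the excess of Inka1 and Pecr depended on treatment. In 5 of the 6 genes, every BM library was above every splenic library, a pattern shown by 2.56% of all genes tested. The exception was Pecr. This pattern was the reason for picking genes, so the count supports nothing further.

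Tceal8 was at 190, 203 and 195 CPM in the 3 BM saline libraries and at 277, 181 and 166 CPM in the 3 BM sepsis libraries. In spleen it was at 0.405, 1.40 and 1.50 CPM after saline, which are 3, 17 and 14 counts, and at 3.65, 1.01 and 2.23 CPM after sepsis. No splenic library came near the lowest BM library. The mean was 178-fold higher in BM after saline (log2 fold change 7.44, SE 0.80) and 90.5-fold higher after sepsis (6.48, SE 0.76). In spleen the septic and saline libraries overlapped (log2 fold change 1.05, SE 0.63). After saline, Tceal8 ranked 2 of the 20263 genes by the difference in mean log2 CPM and 337 by the edgeR log2 fold change.

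Slc14a1, the urea channel gene, was at 397.5, 373 and 463 CPM in BM after saline and at 442, 388 and 229.9 CPM after sepsis. Its splenic values were 5.54, 2.97 and 15.8 CPM after saline and 2.26, 8.29 and 3.40 CPM after sepsis. The mean was 50.8-fold higher in BM after saline (log2 fold change 5.67, SE 0.76) and 76.0-fold higher after sepsis (6.25, SE 0.78). The septic and saline splenic libraries overlapped, with a log2 fold change of -0.81 (SE 0.63). That value turned to 0.15 without replicate 3 of spleen saline, the library with 15.8 CPM. The same library had the highest Pf4 level in its group, 2439 CPM against 485 and 602 CPM.

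Gstm5, the glutathione transferase gene, was at 70.3, 50.6 and 78.4 CPM in BM after saline and at 43.5, 47.8 and 55.7 CPM after sepsis. In spleen it was close to the limit of detection, with 3, 3 and 6 counts after saline and 8, 2 and 2 counts after sepsis. A count of 3 corresponded to 0.105 to 0.405 CPM in these libraries. The mean was 154-fold higher in BM after saline (log2 fold change 7.24, SE 0.98) and 177-fold higher after sepsis (7.38, SE 0.99). The ratio of septic to saline splenic MKs in the summed counts had a 95% interval of 0.306 to 1.81, which covers counting error only.

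Muc13, the membrane mucin gene, was at 73.8, 83.1 and 94.3 CPM in BM after saline and at 97.4, 149 and 115 CPM after sepsis. In spleen it was at 0.541, 3.47 and 3.54 CPM after saline and at 0.565, 0.560 and 1.07 CPM after sepsis. All septic BM libraries were above all saline BM libraries, while the splenic groups overlapped. The mean was 33.3-fold higher in BM after saline (log2 fold change 5.04, SE 0.82) and 165-fold higher after sepsis (7.35, SE 0.92). The splenic log2 fold change after sepsis was -1.79 (SE 0.74). One of the saline splenic libraries, replicate 1, had a level like those after sepsis.

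Inka1, the PAK4 inhibitor gene, was at 166, 148 and 155 CPM in BM after saline and at 181, 87.7 and 132 CPM after sepsis. In spleen it was at 2.03, 0.743 and 0.858 CPM after saline, from 15, 9 and 8 counts. After sepsis it was at 14.9, 27.1 and 16.9 CPM, from 290, 242 and 174 counts. The splenic groups did not overlap, and the septic splenic libraries still lay below every BM library. The mean was 129-fold higher in BM after saline (log2 fold change 7.02, SE 0.76) and 6.79-fold higher after sepsis (2.76, SE 0.62). Within spleen the mean was 16.2-fold higher after sepsis (4.03, SE 0.67, and 4.16 without replicate 3 of spleen sepsis).

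Pecr, the peroxisomal reductase gene, was at 22.3, 31.9 and 42.9 CPM in BM after saline and at 46.2, 32.3 and 19.0 CPM after sepsis. In saline spleen it was nearly undetected, with 0, 2 and 3 counts in the 3 libraries. In septic spleen it was at 61.6, 75.1 and 33.7 CPM, from 1198, 670 and 347 counts. The septic splenic libraries overlapped those of septic BM, and their mean was the higher one, with 56.8 ± 21.1 against 32.5 ± 13.6 CPM (SD, n = 3 each). Pecr was thus a gene higher in BM after saline only. The log2 fold change of BM over spleen was 7.51 (SE 1.11) after saline and -0.80 (SE 0.81) after sepsis. Within spleen it was 8.32 (SE 1.14), or 8.62 without replicate 3 of spleen sepsis, and there Pecr ranked 1 of 20263 genes by the difference in mean log2 CPM and 224 by the edgeR log2 fold change. The summed counts, 2215 against 5, gave a ratio of 330.3 with a 95% interval of 141 to 1018 for counting error only.

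**Figure D1:**
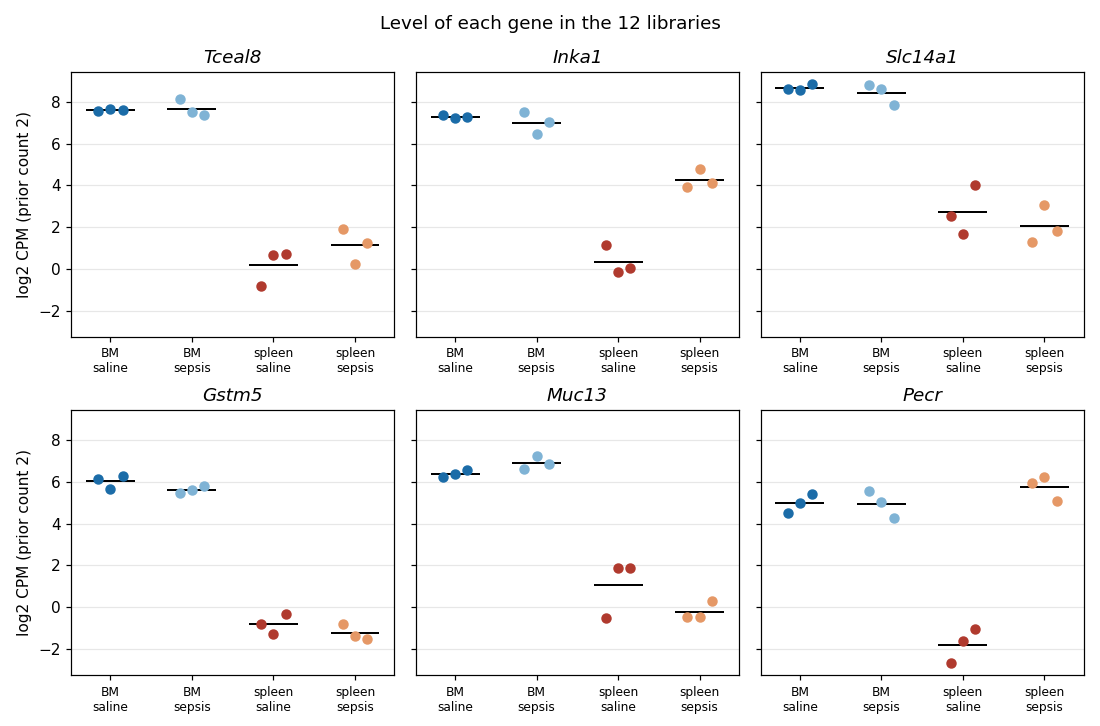
Level of each gene in the 12 libraries, as log2 CPM with a prior count of 2 (vertical axis), by group (horizontal axis), with a point for each library and a bar at the group mean. In 5 genes the BM points lie above all splenic points, while the Pecr points of septic spleen (33.7 to 75.1 CPM) overlap those of BM (19.0 to 46.2 CPM after sepsis).

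Across the table, 11.3% of tested genes were higher in every BM library than in every splenic library after saline, and so were 6 of the 6 genes. After sepsis the shares were 11% of tested genes and 5 of the 6 genes. In spleen, 4.95% of tested genes were higher in every septic than in every saline library, and 2 of the 6 genes were, Inka1 and Pecr. These contrasts chose the genes. The median log2 fold change over all genes tested was -0.28 for BM over spleen after saline, -0.18 after sepsis and -0.08 for septic over saline spleen. The members just inside and outside a size limit cannot be given, since the rule set none. The smallest BM excess after saline was that of Muc13 and the next that of Slc14a1, which ranked 152 and 61 by mean log2 CPM difference and 1266 and 1043 by the edgeR log2 fold change.

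**Figure D2:**
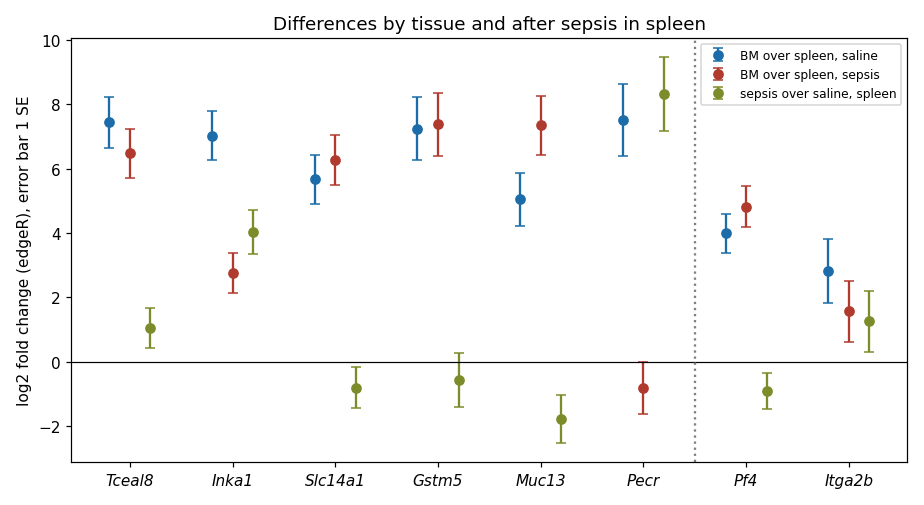
Log2 fold changes fitted with edgeR (vertical axis) for the 6 genes and, right of the dotted line, for Pf4 and Itga2b, with error bars of 1 SE. The values of BM over spleen stand between 5.04 and 7.51 after saline, and Inka1 and Pecr differ from the other 4 genes in their low BM excess after sepsis (2.76 and -0.80) and high values in spleen (4.03 and 8.32).

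Levels of different genes were compared only per kilobase of exon. In BM MKs after saline the order was Inka1 (135 ± 7.84 CPM per kb), Slc14a1 (103 ± 11.7), Tceal8 (76.5 ± 2.62), Gstm5 (52.0 ± 11.2), Muc13 (27.6 ± 3.38) and Pecr (21.4 ± 6.77), each with its SD over 3 libraries. Only the last neighbours in this order, Muc13 and Pecr, had libraries that overlapped. In BM MKs after sepsis, Inka1, Slc14a1 and Tceal8 overlapped at means of 115, 88.4 and 81.1 CPM per kb, Muc13 and Gstm5 overlapped at 39.7 and 38.3, and Pecr lay below them at 21.4. In saline splenic MKs, all neighbours in the order overlapped, from Slc14a1 at 2.03 to Pecr at 0.107 CPM per kb. After sepsis Pecr led the order in splenic MKs at 37.5 ± 13.9 CPM per kb and overlapped with Inka1 at 17.0 ± 5.67. The other 4 genes were between 0.216 and 1.16 CPM per kb, and the highest library of Slc14a1 (2.08) was under the lowest of Inka1 (12.9).

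Because Pf4 also differed between the tissues, each gene was set against the Pf4 counts of its own library. Pf4 encodes platelet factor 4, a chemokine stored in platelet granules. Tceal8 had a median of 10.9 counts per 1000 Pf4 counts in BM after saline and 0.837 in spleen. Gstm5 had 3.81 and 0.411. Slc14a1 had 22.5 and 6.47, and Muc13 had 4.58 and 1.45, with 1 saline splenic library of Muc13 (5.75) above its BM median. On this scale the BM excess after saline was smaller for all 6 genes than in CPM, which follows from the higher Pf4 in BM. As a ratio of medians the excess was between 3.16-fold for Muc13 and 13.5-fold for Pecr.

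After sepsis the Pf4 scale turned the order of the tissues for Inka1. This follows from the scale, since the BM excess of Pf4 (log2 fold change 4.81) was larger than that of Inka1 (2.76). The median of Inka1 was 24.2 per 1000 Pf4 counts in septic spleen (21.4 to 57.0) and 6.92 in septic BM (5.90 to 13.7), and these libraries did not overlap. Pecr had 100.1 per 1000 Pf4 counts in septic spleen, with a range of 42.7 to 158, against 1.98 in septic BM and 0.132 in saline spleen. The medians of the other 4 genes in septic spleen stayed below those in BM. They were 2.83 for Tceal8, 4.30 for Slc14a1, 0.471 for Gstm5 and 1.18 for Muc13. In septic BM the medians of those 4 genes were 14.3, 23.9, 3.77 and 11.8. The tissues overlapped for Slc14a1, which had 17.4 in replicate 2 of spleen sepsis against 14.4 to 30.6 in septic BM.

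**Figure D3:**
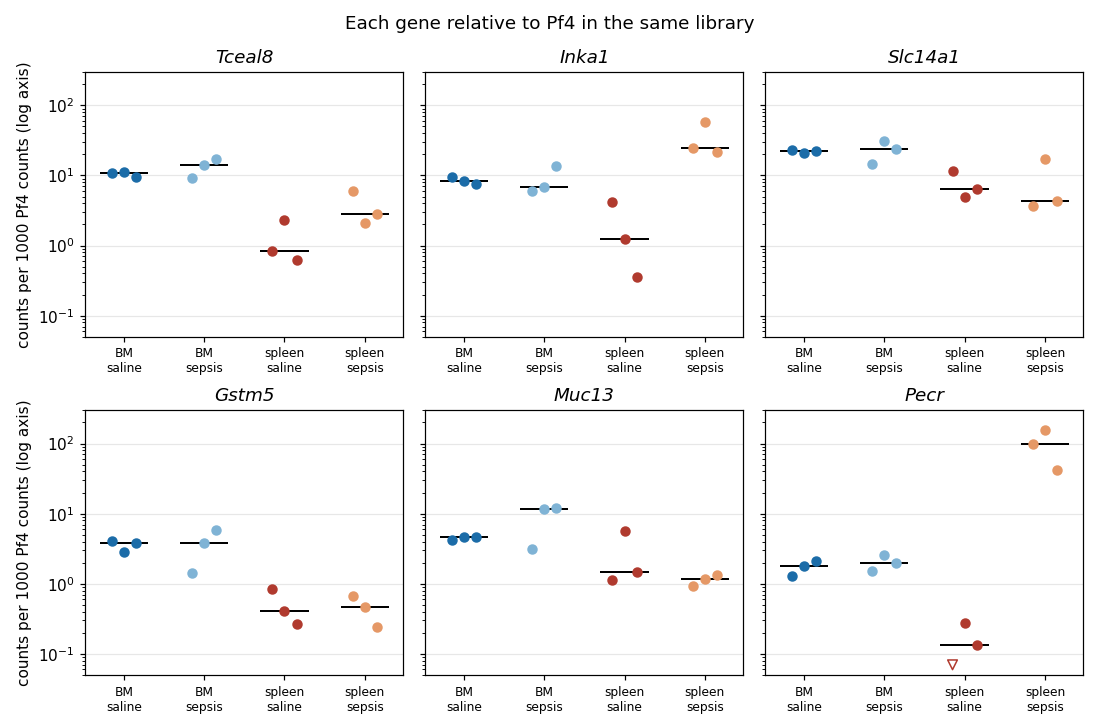
Counts of each gene per 1000 Pf4 counts of the same library (vertical log axis) in the 4 groups, with a point per library and a bar at the median. The open triangle marks the saline splenic library with no Pecr count. The septic splenic libraries of Inka1 (21.4 to 57.0) and Pecr (42.7 to 158) lie above those of all other groups.

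Sepsis in BM MKs was the comparison that could be tested. No member was called, and none had an unadjusted p under 0.05. Across all genes tested, edgeR called 0%, and 717 of the 20263 genes (3.54%) had an unadjusted p under 0.05. DESeq2 called 172 genes and limma-voom 0 in this comparison, with none of the 6 members among them in either. The log2 fold changes of septic over saline BM MKs were 0.08 for Tceal8, -0.23 for Inka1, -0.22 for Slc14a1, -0.44 for Gstm5, 0.53 for Muc13 and 0.01 for Pecr, and all 6 had an edgeR adjusted p = 1. No alternative brought a member below an adjusted p of 0.884. Neutrophil markers (9 genes) summed to 93.4 to 272 CPM in saline BM and 2248 to 16706 CPM in septic BM. Their median log2 fold change was 5.19, with 0 of 9 called. Sums of erythroid (163 to 462 and 53.1 to 92.1 CPM) and B cell markers (177 to 293 and 72.4 to 98.9 CPM) were lower after sepsis. The part of these differences in the values of the members was not tested.

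The intervals were wide. The 95% interval of the log2 fold change was -1.16 to 1.33 for Tceal8, -1.45 to 0.98 for Inka1 and -1.51 to 1.07 for Slc14a1. It was -1.97 to 1.10 for Gstm5, -0.92 to 1.97 for Muc13 and -1.68 to 1.69 for Pecr. Changes of up to these bounds in either direction could not be told from no change. Muc13 was the only member whose BM groups did not overlap, with 83.7 ± 10.3 CPM after saline and 121 ± 26.4 CPM after sepsis (SD, n = 3 each), and 4.79% of all genes tested were likewise higher in every septic BM library. Without replicate 1 of BM sepsis the values of Tceal8 and Pecr fell below 0, as did that of Pecr without replicate 1 of BM saline. The value of Inka1 was above 0 without replicate 2 of BM sepsis and Slc14a1 without replicate 3.

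**Figure D4:**
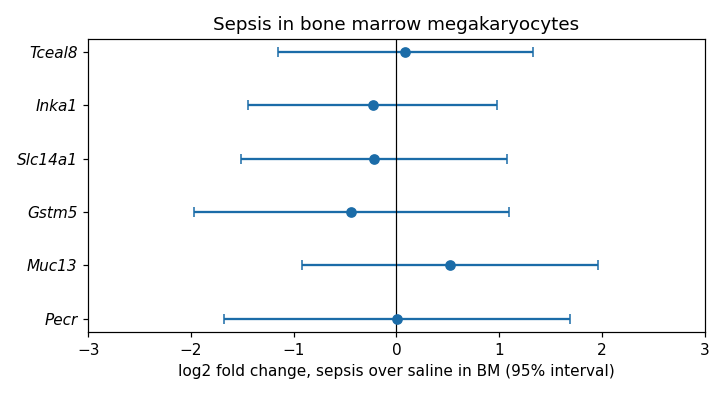
Log2 fold change of septic over saline BM MKs (horizontal axis) for the 6 genes, fitted with edgeR, with 95% intervals. Every interval spans 0, from the lowest bound of -1.97 for Gstm5 to the highest of 1.97 for Muc13.

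The genes with the most similar pattern were taken as those with the smallest root mean square difference in centred log2 CPM over the 12 libraries. The median distance to all genes tested was between 3.24 and 3.82 for the 6 members. All 12 points share the difference between the tissues, so likeness is a description. Tceal8 was nearest to Gm15657 (0.61), Ufsp1 (0.68), which encodes a protease of the ubiquitin-like protein UFM1, and Gstm5 (0.76). Slc14a1 was nearest to Bex4 (0.56) and Mycn (0.63), of which the latter is a transcription factor gene. Gstm5 was nearest to Slc14a1 (0.73), Ufsp1 (0.74) and Tceal8 (0.76). Among the genes nearest to Muc13 were Emilin1 (0.67), a gene of the extracellular matrix, and Slc35d3 (0.74), a gene needed for platelet dense granules.

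Inka1 and Pecr had other neighbours in pattern. Inka1 was nearest to Pemt (0.62), which encodes the enzyme that makes phosphatidylcholine by methylation, Prodh (0.65), the proline dehydrogenase gene, and Tmem18 (0.82). Pemt was at 29.5 and 25.1 CPM in saline and septic BM, and at 0.108 and 1.55 CPM in saline and septic spleen. Prodh was at 32.6, 40.8, 0.261 and 2.39 CPM in the same order. Pecr was nearest to Rfc5 (0.91), a subunit of the clamp loader of DNA replication, Clspn (0.93), the gene of the replication checkpoint protein claspin, and Lin52 (0.96), a subunit of a complex that regulates cell cycle genes. Rfc5 was at 42.5, 33.0, 0.217 and 37.2 CPM in the 4 groups, and Clspn at 17.3, 19.3, 0.0990 and 13.1 CPM. Lin52 was at 6.16 and 8.92 CPM in BM, was not detected in the 3 saline splenic libraries and was at 9.39 CPM in septic spleen. Among the members, Tceal8, Slc14a1, Gstm5 and Muc13 were 0.73 to 1.16 from one another. Pecr was 1.75 from Inka1 and 3.12 to 3.58 from the other 4.

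Genes of the same families and pathways were then counted, from 6 lists of 129 genes, of which 111 were tested. For BM over spleen after saline, 0 of 111 were called, while 1.25% of all genes tested were called (12.5% had an unadjusted p under 0.05). DESeq2 called 9 of the 111 (8.11%) against 6.45% of all genes tested, and limma-voom called 2 (1.8%) against 0.913%. After sepsis 2 of 111 (1.8%) were called, both higher in BM, against 1.78% of all genes tested and 0.597% called higher in BM. For septic over saline MKs, 0 were called in BM, and 0 in spleen, where 0.158% of all genes tested were called (13.1% had an unadjusted p under 0.05). In spleen DESeq2 called 7 of the 111 (6.31%) against 4.72% of all genes tested, and limma-voom called 0 of all genes.

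Of the TCEAL and BEX family, 5 of 11 genes were tested. Their median log2 fold change of BM over spleen was 1.80 after saline and 6.51 after sepsis. Bex3, which encodes a small adaptor protein linked to the p75 neurotrophin receptor, was called after sepsis (log2 fold change 3.36, SE 0.77, adjusted p = 0.0261, edgeR). It was at 244, 120 and 211 CPM in septic BM and at 41.7, 6.72 and 7.38 CPM in septic spleen, and these libraries did not overlap. The call was lost without replicate 2 of spleen sepsis (adjusted p = 0.0852) and with the 6 libraries of the comparison alone (0.0801). The lowest adjusted p of Bex3 over the settings run was 0.000234. Tceal9 is a paralog of Tceal8. Its means were 260 and 219 CPM in BM and 107 and 285 CPM in spleen, after saline and sepsis, and it was called in no comparison (lowest adjusted p = 0.382).

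Of the PAK kinases with their inhibitors and effectors, 13 of 14 were tested and none was called. The median log2 fold change was 0.33 and -0.24 for BM over spleen after saline and sepsis, and 0.15 for sepsis in spleen. Pak4, the kinase that Inka1 inhibits, was low, at means of 3.25 and 3.35 CPM in BM and 0.136 and 5.81 CPM in spleen after saline and sepsis. The septic splenic mean of Pak4 carried an SD of 8.70 CPM, larger than the mean itself. Its log2 fold change after sepsis in spleen was 5.32 (SE 2.45, edgeR adjusted p = 0.382). Inka2, the paralog of Inka1, had means of at most 2.45 CPM.

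Of the urea channel, aquaporin and blood group genes, 14 of 19 were tested and none was called. The medians of BM over spleen were 0.62 after saline and 2.14 after sepsis. Aqp1, a water channel gene that carries the Colton antigen, was at 11.8 and 14.0 CPM in BM and 0.358 and 0.637 CPM in spleen, but its log2 fold changes of 5.00 and 4.45 did not pass the test (adjusted p = 0.364 and 0.377). Cd55, the complement regulator that carries the Cromer antigen, was named after its values were seen. It was at 57.7 and 26.98 CPM in BM and 273 and 167 CPM in spleen, and its log2 fold changes of -2.24 and -2.63 did not pass it either (edgeR adjusted p = 0.157 and 0.0695). Slc14a2, the paralog and neighbour of Slc14a1, had means of 4.63 and 9.31 CPM in BM and 2.44 and 1.02 CPM in spleen.

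Of the glutathione genes, 23 of 27 were tested and none was called, with medians of 0.58 and 0.65 for BM over spleen after saline and sepsis. Gstm1, the main mu-class transferase of liver, had a log2 fold change of BM over spleen of -1.73 with saline (edgeR adjusted p = 0.426) and of 3.49 with sepsis (edgeR adjusted p = 0.0924). Gstm4 was low, at 0.555 to 4.47 CPM over the 4 group means. Of the mucins and sialomucins, 16 of 17 were tested and none was called, and the medians of BM over spleen were -0.39 and 1.08. Muc1 and Emcn had means under 6 CPM in all groups.

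Of the peroxisomal lipid and fatty acid elongation genes, 40 of 41 were tested, with medians of 0.08 and 0.07 for BM over spleen and -0.15 for sepsis in spleen. Hacd1 encodes a dehydratase of fatty acid elongation. This gene was called for BM over spleen after sepsis (log2 fold change 5.56, SE 1.20, adjusted p = 0.0178, edgeR). It was at 111, 53.0 and 91.8 CPM in septic BM and at 4.16, 0.224 and 0.873 CPM in septic spleen. It was called under all alternatives run (adjusted p from 3.96e-06 to 0.0389). The value of Hacd1 for septic over saline spleen was -3.61 on the log2 scale (edgeR adjusted p = 0.307), opposite in sign to that of Pecr. Decr2 and Hsd17b4, which encode other peroxisomal enzymes of fatty acid metabolism, passed the test in no comparison, with Hsd17b4 at 16.5 and 30.3 CPM in BM and 20.1 and 16.4 CPM in spleen.

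By edgeR, none of the tested protein-coding genes next to the members on the chromosomes was called in any comparison. On GRCm38 in GENCODE M21, Tceal8 (ENSMUSG00000051579) lies at chrX:136168984-136172342, with Bex4 and Tceal5 28540 and 28605 bases away. Bex4 was at 7.23 to 16.3 CPM in BM and 0 to 0.224 CPM in spleen (edgeR adjusted p = 0.161 after saline, at a log2 fold change of 6.98, and 0.159 after sepsis, at 6.87). Inka1 (ENSMUSG00000042106) lies at chr9:107984223-107985879. Uba7, which encodes the activating enzyme of the ubiquitin-like protein ISG15, ends 162 bases from it and had a log2 fold change of -2.05 (adjusted p = 0.382) for septic over saline spleen. It was at 164, 40.9 and 33.2 CPM in saline spleen, where replicate 1 was far above the others, and at 12.2, 13.9 and 31.2 CPM in septic spleen. Pecr (ENSMUSG00000026189) lies at chr1:72259167-72284314, and Tmem169, transcribed the other way from 54 bases away, had 0 to 29 counts per library and was too low to test. Mreg, on the other side of Pecr, had means of 0.0331 and 0.351 CPM in BM and 2.94 and 4.25 CPM in spleen.

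Muc13 (ENSMUSG00000022824) lies at chr16:33794037-33819934 between Heg1 and Itgb5, and Gstm5 (ENSMUSG00000004032) at chr3:107895821-107898686 between Eps8l3 and Gstm7. Slc14a1 (ENSMUSG00000059336) lies at chr18:78100091-78142119 beside Slc14a2 and Siglec15. The library kit does not mark strand, so reads from exons shared with an antisense gene cannot be assigned. Such exons made up 13.9% of Gstm5 (4933431E20Rik), 11.5% of Pecr (D230017M19Rik) and 6.06% of Muc13 (Gm15657). The first had 0 to 85 counts per library and the second 0 to 49, with 7, 5 and 49 counts in septic spleen against 1198, 670 and 347 for Pecr. Gm15657 had 216 to 1094 counts in BM libraries and 1 to 14 in splenic ones, and its likeness to Tceal8 and Muc13 can therefore hold Muc13 reads. No stretch of 50 bases of Gstm5 was shared with another glutathione transferase transcript, and Inka1 and Slc14a1 shared none with any gene.

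Marker lists of other cell types also differed in level between the splenic groups in which Inka1 and Pecr were high and low. In spleen after sepsis, basophil and mast cell markers summed to 49.9 to 745 CPM against 3231 to 5164 CPM after saline, with 2 of 8 called lower. Plasma cell markers summed to 7761 to 35669 CPM against 46743 to 80835 CPM, with 0 of 8 called. Of these sums, Jchain alone was 6552 to 33994 CPM after sepsis and 45640 to 80009 CPM after saline. The median log2 fold change over the 8 plasma cell markers was 0.50, in the other direction. Monocyte and macrophage markers summed to 241 to 435 CPM against 596 to 1171 CPM and did not overlap, with 0 of 9 tested called. Ly6c2 alone made up 195 to 350 CPM of this sum after sepsis and 283 to 1046 CPM after saline, which overlapped. B cell markers (3302 to 10512 against 3217 to 7543 CPM) overlapped between treatments. So did T cell (133 to 498 against 148 to 1914 CPM) and endothelial markers (41.2 to 77.3 against 35.2 to 108 CPM). Progenitor markers summed to 116 to 1527 CPM after sepsis and 603 to 924 CPM after saline. Of these sums, Cd48 alone was 1463, 1010 and 35.4 CPM after sepsis and 766, 548 and 417 CPM after saline. The median log2 fold change over the 9 progenitor markers was -1.80, with 0 called. The 11 erythroid markers in the table summed to 33.2 to 67.2 CPM after sepsis, with 3 at 0 in all libraries, and 17.7 to 630 CPM after saline. Neutrophil markers summed to 66.2 to 10424 CPM in septic and 339 to 21170 CPM in saline spleen. The part of these differences in the rise of Inka1 and Pecr was not tested.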

How the data were processed

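RNA from 300 sorted MKs per library was amplified with the SMART-Seq HT kit and made into libraries with Nextera XT. The authors deposited whole-number read counts for 55536 genes in 12 libraries, without normalization. The submitters' processing notes name STAR 2.7.2b, R 3.6.1, DESeq2 1.26 and GRCm38, while the annotation, the counting options and the strand setting were not stated in what was read here. The total count per library was 7756762 to 27386184, and limits from 3 counts cover counting error only.

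The counts were fitted using edgeR 4.0.16 under R 4.3.3, after filterByExpr with a minimum count of 10, TMM factors, 1 mean per group over all 12 libraries (8 residual degrees of freedom) and the quasi-likelihood F test with Benjamini-Hochberg adjustment over 20263 genes at 0.05. The common dispersion was 2.05 (biological coefficient of variation 143%). Alternatives were RLE factors, library size alone, other filters, DESeq2 1.42.0, limma-voom (limma 3.58.1), a fit of only the 6 libraries compared, the replicate block, other prior counts and each library left out.

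The members and the lists were chosen with earlier results of these data known. Named genes are the members, the 3 genes nearest to each in pattern (one is not reported here), their chromosomal neighbours, called genes of the lists, fixed relatives (Tceal9, Bex3, Inka2, Pak4, Slc14a2, Aqp1, Gstm1, Gstm4, Emcn, Muc1, Decr2, Hsd17b4) and genes of the sort. Antisense genes were named after the overlap of exons was computed. Promoter windows came from a RefSeq table on GRCm38.p6, and windows of 5 of the 6 members were used. No window on chromosome 18, where Slc14a1 lies, was used for the members.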

Additional observations from a re-analysis of the deposited data

Results flagged for a closer look

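Gstm1 was picked out among 29 genes checked because the effect of sepsis had opposite signs in the tissues. In BM its mean was 3.939-fold higher after sepsis, with 40.7, 107 and 56.2 CPM in the saline and 153, 206 and 446 CPM in the septic libraries. In spleen the ratio was 0.1058, with 233, 359 and 82.6 CPM after saline and 0.463, 37.2 and 33.8 CPM after sepsis. The libraries of the treatments did not overlap in either tissue. The difference between the tissues in the effect of sepsis was a log2 value of 5.22, with an edgeR adjusted p = 0.429 over all genes tested (unadjusted p = 0.00104 by the same quasi-likelihood model), and was not called. For that difference edgeR called 0 of all genes tested (smallest adjusted p = 0.0764), and 1556 had an unadjusted p under 0.05.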

How the results depend on the processing

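The 12 libraries set the limits: 3 per group, a biological coefficient of variation of 143%, and 0 to 17 counts for Gstm5, Pecr and Tceal8 in saline spleen. In BM after sepsis no member was called under any alternative. Pecr there turned to -0.031 with RLE factors, -0.0151 with the stricter filter, -0.0310 with DESeq2 and -0.14 with limma-voom. Leaving out each library, the BM values ranged from -0.33 to 0.29 for Pecr, -0.16 to 0.24 for Tceal8, -0.50 to 0.0178 for Inka1 and -0.40 to 0.0243 for Slc14a1. Slc14a1 in spleen ranged from -1.51 to 0.15, and Gstm5 in spleen from -0.99 to -0.13.

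For BM over spleen after saline, leave-one-out ranges were 6.77 to 7.72 for Inka1, 5.28 to 6.63 for Slc14a1, 6.96 to 7.69 for Gstm5 and 7.14 to 8.33 for Pecr. After sepsis they were 5.99 to 7.05 for Slc14a1, 7.20 to 7.90 for Gstm5 and 7.21 to 7.74 for Muc13, and for sepsis in spleen 3.76 to 4.68 for Inka1 and 7.91 to 9.13 for Pecr. With library size alone, Inka1 was at 7.58 and 3.28 after saline and sepsis, Gstm5 at 7.77 and 7.99, and Muc13 at 7.88 after sepsis. As differences of mean log2 CPM with a prior count of 5, Gstm5 was at 6.35 and 6.22, Pecr at 5.89 after saline and 6.66 in spleen, and Muc13 at 6.76 after sepsis. The cause was not tested.

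The 111 family and pathway genes called after saline (0), after sepsis (2) and in septic spleen (0) became 1 after saline with library size alone, 2, 4 and 3 without a filter (more genes tested), 9, 11 and 7 with DESeq2, 2 and 7 in the tissue comparisons with limma-voom, and 1 and 1 with the 6 libraries alone. Leave-one-out gave 0 to 3, 2 to 6 and 0 to 2. Over all genes tested, 253, 361 and 32 were called in these comparisons, against 529, 595 and 187 of 45788 without a filter and 1307, 1436 and 957 with DESeq2. After sepsis limma-voom called 724. In spleen the stricter filter gave 20, and limma-voom and the 6 libraries alone 0. For sepsis in BM edgeR called 0, or 81 without a filter, and DESeq2 172. Without one library, 7 to 17 of the 18 most similar genes were shared with the full list, 7 of them without replicate 2 of spleen saline. The replicate block gave 4 called after sepsis. Same-numbered libraries did not deviate together (18 correlations of -0.057 to 0.045). With this spread between libraries, the check cannot tell whether same-numbered libraries came from the same mouse.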
